A study of Mus musculus with 18 samples.

Results

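The 5 genes described are the members of the mouse prolactin family in the proliferin group: Prl2c2, Prl2c3 and Prl2c5, which encode proliferins, the related gene Prl2c1, and Prl2a1. They were taken by symbol, 5 of the 18838 genes listed in at least 1 of 3 tables. They were selected on their normalized counts in these libraries, which were high in Mtgr1-/- enteroids, so that their levels and differences are a description without a test. All 18 bulk RNA libraries were used. Mice of 2 genotypes were compared, WT (Mtgr1+/+) and Mtgr1-/-, the latter lacking the transcriptional co-repressor MTGR1 in every tissue, and each genotype was represented by 3 mice of 8 to 12 weeks, male and female age-matched littermates. From each mouse, duodenal crypts were collected on isolation (day 0), and further crypts of the same isolation were grown as enteroids, which are epithelial cultures in a gel with R-spondin, Noggin and EGF, for 24 h (day 1) or 72 h (day 3). The question of the design is how the loss of MTGR1 alters RNA levels in crypts and in the first days of enteroid culture.

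Proliferins are secreted glycoproteins related to prolactin and growth hormone. In the mouse they are best known from the placenta, where trophoblast giant cells release them and where they act on blood vessel growth, and from cultured fibroblasts, in which serum and growth factors induce them. Mouse proliferins lie in a prolactin family that expanded by gene duplication along chromosome 13, and most of its members are expressed in the placenta or decidua rather than in adult epithelium. Prolactin itself signals through the receptor Prlr and the JAK2 and STAT5 proteins, whereas proliferin binds the mannose-6-phosphate receptor Igf2r.

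On the GRCm38 build with GENCODE M21 models, all 5 genes are protein-coding and lie on chromosome 13 in 2 places. Prl2c3 (chr13:12790816-12800079, minus strand), Prl2c2 (chr13:12996125-13005383, minus strand) and Prl2c5 (chr13:13182715-13191923, plus strand) lie together, and Prl2a1 (chr13:27801654-27808729, plus strand) and Prl2c1 (chr13:27849342-27857788, plus strand) lie within the main prolactin cluster. The gene identifiers in the tables are ENSMUSG00000056457.6 for Prl2c3, ENSMUSG00000079092.4 for Prl2c2, ENSMUSG00000055360.13 for Prl2c5, ENSMUSG00000022886.5 for Prl2a1 and ENSMUSG00000062551.13 for Prl2c1.

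The genes are so alike that short reads cannot always be assigned to 1 of them. The first 100 coding bases of each, from the start codon in its 5-exon GENCODE M21 transcript, are shown for that reason, with capitals marking the positions at which a gene has another base than Prl2c2.
Prl2c2: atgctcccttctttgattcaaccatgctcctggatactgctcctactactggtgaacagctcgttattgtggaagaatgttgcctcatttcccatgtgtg
Prl2c3: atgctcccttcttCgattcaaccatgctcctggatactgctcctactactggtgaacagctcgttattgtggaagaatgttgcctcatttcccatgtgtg
Prl2c5: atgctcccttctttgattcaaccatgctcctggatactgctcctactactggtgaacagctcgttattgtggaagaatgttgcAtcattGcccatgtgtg
Prl2c1: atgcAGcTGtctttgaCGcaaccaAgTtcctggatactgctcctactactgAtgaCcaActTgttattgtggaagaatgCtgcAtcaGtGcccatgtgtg
Prl2a1: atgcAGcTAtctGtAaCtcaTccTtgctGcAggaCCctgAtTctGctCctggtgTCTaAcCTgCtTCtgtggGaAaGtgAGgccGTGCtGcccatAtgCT
Over this stretch Prl2c3 differed from Prl2c2 at 1 position, Prl2c5 at 2, Prl2c1 at 16 and Prl2a1 at 39. Over the whole coding sequence, Prl2c2 and Prl2c3 were identical at 669 of 672 aligned bases (99.6%), Prl2c2 and Prl2c5 at 646 of 672 (96.1%), and Prl2c2 and Prl2c1 at 632 of 684 (92.4%). Prl2a1 shared 437 of 688 aligned bases with Prl2c2 (63.5%).

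The reads of this study were 50 bases long. Of the 793 windows of that length in the Prl2c2 transcript, 80.1% occurred exactly in Prl2c3, and 83 windows (10.5%) occurred in no other annotated gene. For Prl2c3 173 of 808 windows (21.4%) were its own, for Prl2c5 488 of 795 (61.4%), and for Prl2c1 578 of 803 (72.0%). All 835 windows of Prl2a1 were found in Prl2a1 alone. Gm7040, an annotated pseudogene that was not analysed here, held 189 of the windows of Prl2c2 and 189 of those of Prl2c3. The split of reads between Prl2c2 and Prl2c3 is therefore an estimate of the authors' quantification and uncertain, as is, to a lesser degree, the level of Prl2c5 and Prl2c1. The sum over the 4 Prl2c genes, called the Prl2c sum here, does not depend on that split among them, whereas Prl2a1 shares no window with the others and was measured on reads of its own.

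**Figure D1:**
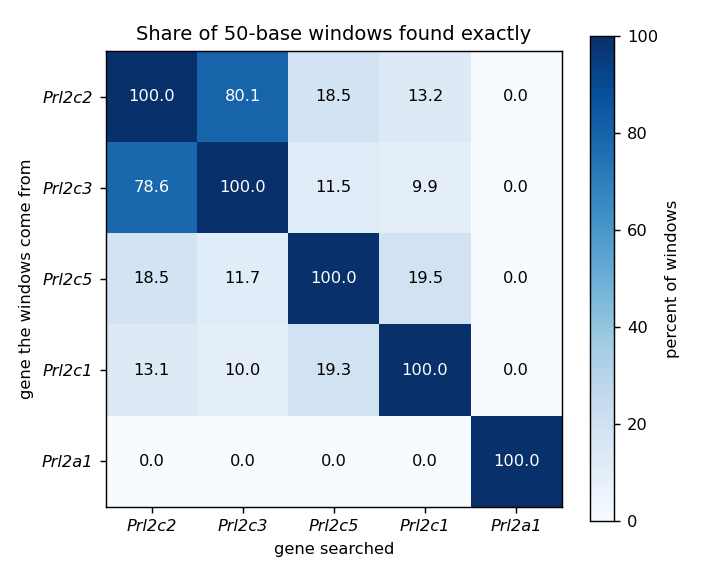
Percent of the 50-base windows of each gene's 5-exon transcript (rows) that occur exactly in any transcript of another gene (columns). Prl2c2 and Prl2c3 share 80.1% and 78.6% of their windows, and Prl2a1 shares 0.0% with each of the others.

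The libraries held between 22035316 and 29661084 reads assigned to genes. Values are normalized counts, the authors' read counts divided by a factor for each library, and means are given ± SD of 3 mice. Epithelial markers (Epcam, Cdh1, Vil1 and 7 others) were above 0 in all groups, with a summed normalized count of 217912 to 499667 per library. Of these 10 markers, 1 was higher and 0 lower in Mtgr1-/- crypts in the fit over all genes, 5 were higher and 1 lower at day 1 and 6 were higher and 1 lower at day 3, where 4.73%, 58.9% and 59.0% of all genes tested passed. Immune markers stood apart in the WT crypts of mouse 3, at a summed 11752 against 735 to 1523 in the other crypt libraries. The transcript of the targeted gene, Cbfa2t2, was not lower in the libraries labelled Mtgr1-/-: it was 577 ± 48.3 in WT and 566 ± 119 in Mtgr1-/- crypts, 752 ± 39.3 and 986 ± 187 at day 1, and 842 ± 59.4 and 878 ± 106 at day 3. Counts over the whole gene do not show which part of it was deleted, and the groups are named by their labels throughout. In these bulk libraries, more cells of a type that expresses a gene and more RNA of that gene per cell cannot be told apart.

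In crypts the proliferin genes were close to undetected in WT and low in the libraries labelled Mtgr1-/-. The Prl2c sum was 0.96, 0 and 0 normalized counts in the 3 WT mice and 21.7, 59.0 and 41.7 in the 3 Mtgr1-/- mice. These rested on 1 read in all WT crypts and on 126 reads in all Mtgr1-/- crypts, a ratio of reads per library read of 121, with an exact 95% counting interval of 21.4 to 4829. The 3 Mtgr1-/- libraries were each above the 3 WT libraries, a state that 12% of the 12980 genes tested in crypts shared.

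Prl2c2 gave 0.96, 0 and 0 in WT crypts and 9.42, 25.7 and 33.5 in Mtgr1-/- crypts. Prl2c3 was at 0 in all WT crypts and at 11.3, 33.3 and 6.10 in Mtgr1-/- crypts, a mean at least 5.45-fold above a floor of 3 reads per library. Which of the pair was higher differed between the mice. Prl2c5 rested on 3 reads in Mtgr1-/- crypts and 0 in WT crypts, which is at the floor, and Prl2a1 and Prl2c1 had no row in the crypt table. Of the 5 genes, only Prl2c2 reached the mean of 10 normalized counts that the fit over all genes required, and it did so through the Mtgr1-/- libraries.

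After 24 h of culture, Prl2c RNA was among the abundant transcripts of the libraries labelled Mtgr1-/- and remained low in WT. The Prl2c sum was 236, 56.2 and 244 normalized counts in the 3 WT mice (179 ± 106) and 67879, 43902 and 87255 in the 3 Mtgr1-/- mice (66345 ± 21717). The lowest Mtgr1-/- library was 180-fold above the highest WT library, and the ratio of the means was 371. On the log2(normalized count + 1) scale the difference was 8.74. In the Mtgr1-/- libraries the sum made up 0.162% to 0.280% of all gene counts. Mouse 2 was the lowest of its group in both genotypes.

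Prl2c2 was at 93.3, 37.5 and 106 in WT and at 38468, 19983 and 40475 in Mtgr1-/- day 1 enteroids. Prl2c3 was at 134, 17.7 and 137 in WT and at 28489, 23065 and 45256 in Mtgr1-/-. The groups lay far apart for both genes, and 34.2% of the 12587 genes tested at day 1 also had every Mtgr1-/- library above every WT library, and 33.9% had every one below. Per kb of the longest annotated transcript, Prl2c2 averaged 1295 and Prl2c3 1251 CPM (each library's gene counts scaled to one common total) in Mtgr1-/-, against 3.91 and 4.65 in WT. Ranked by counts per length among the 17423 genes of the day 1 table, Prl2c3 was between 28 and 42 and Prl2c2 between 32 and 53 in the Mtgr1-/- libraries. In the WT libraries the same ranks were 7195 to 10935 for Prl2c3 and 7836 to 10017 for Prl2c2.

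Prl2c5 lay well below Prl2c2 and Prl2c3. It was at 9.15, 1.04 and 0 in WT and at 920, 852 and 1524 in Mtgr1-/- day 1 enteroids, which was 1.36% to 1.94% of the Prl2c sum in the Mtgr1-/- libraries. Prl2c1 rested on 4 reads in the Mtgr1-/- libraries and 0 in WT, and did not reach the mean of 10.

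Prl2a1, whose reads are shared with no other gene, was at 0 in each WT library and at 259, 623 and 963 in the 3 Mtgr1-/- day 1 libraries. Its mean of 615 ± 352 was at least 220-fold above the floor of 3 reads per library. Among the Mtgr1-/- mice it varied more than the Prl2c sum, and not in the same order: mouse 1 was lowest for Prl2a1 and mouse 2 for the Prl2c sum. Relative to the Prl2c sum, Prl2a1 was between 0.381% and 1.42%.

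At day 3 the genes were lower than at day 1 but still far above WT. The Prl2c sum was 64.5, 15.1 and 91.0 in WT (56.9 ± 38.5) and 15542, 10839 and 18007 in Mtgr1-/- (14796 ± 3642), a ratio of means of 260 and a difference of 8.30 on the log2 scale. Prl2c2 was at 47.5, 15.1 and 56.1 in WT and at 6846, 4199 and 6566 in Mtgr1-/-. Prl2c3 was at 17.0, 0 and 31.9 in WT and at 8373, 6461 and 11164 in Mtgr1-/-. The groups did not overlap for either gene, and at this time point 34.6% of the 12782 genes tested had all Mtgr1-/- libraries above all WT libraries.

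Prl2c5 rested on 3 reads in WT day 3 enteroids (0, 0 and 2.90) and was at 323, 178 and 276 in Mtgr1-/-, a read ratio of 241 with an exact 95% counting interval of 82.2 to 1173. Prl2a1 was at 0 in each WT library and at 28.4, 9.94 and 28.1 in Mtgr1-/-, at least 8.04-fold above the floor. Prl2c1 had no row in the day 3 table.

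**Figure D2:**
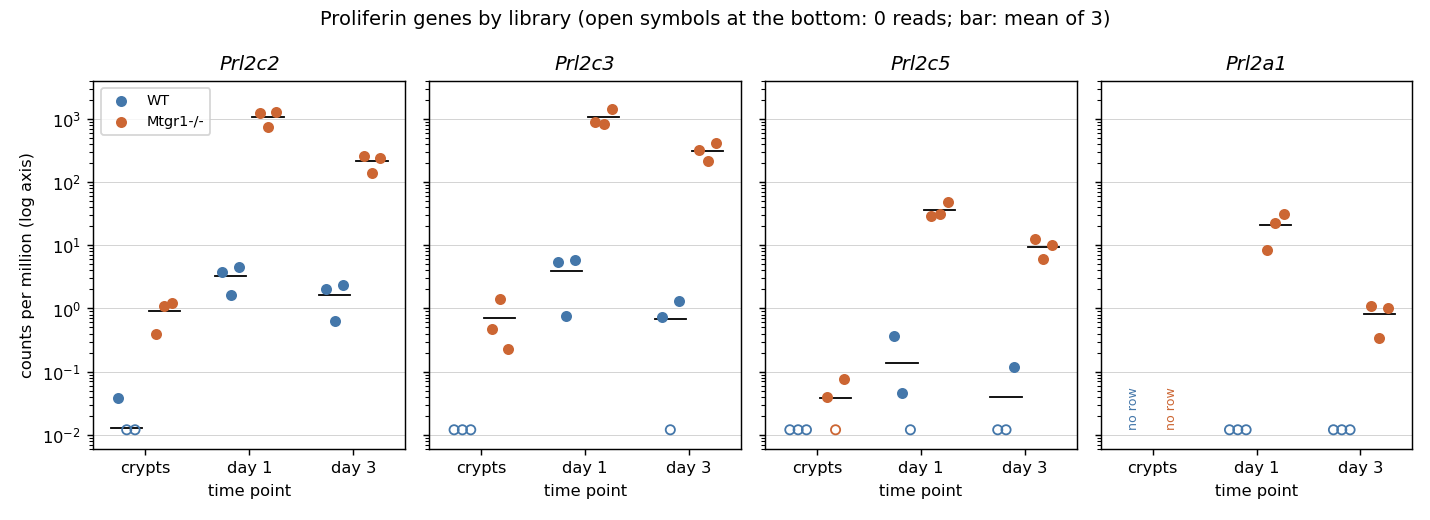
CPM of Prl2c2, Prl2c3, Prl2c5 and Prl2a1 in each library (points; log axis), by time point and genotype, with the mean of 3 mice as a bar and libraries with 0 reads as open symbols at the bottom. In the 2 enteroid time points every Mtgr1-/- library lies above every WT library for each gene, with Prl2c2 and Prl2c3 near 1090 and 1072 CPM at day 1 in Mtgr1-/- and Prl2a1 at 0 reads in WT.

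Levels at different time points were compared as CPM of each library's gene counts, since each time point has a table of its own. The highest level of the Prl2c sum was in Mtgr1-/- day 1 enteroids (1618 to 2801 CPM), followed without overlap by Mtgr1-/- day 3 enteroids (368 to 662) and then by WT day 1 enteroids (2.45 to 10.3). WT day 3 enteroids (0.63 to 3.76) overlapped with WT day 1 enteroids, and Mtgr1-/- crypts (0.901 to 2.48) overlapped with both. WT crypts were lowest, with 1 mouse at 0.038 and the others at 0.

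The order of the time points was the same in both genotypes, at very different levels. From crypts to day 1 the Prl2c sum was between 653-fold and 2418-fold higher in the 3 Mtgr1-/- mice. In WT only mouse 1 had a read in crypts, so that no such ratio was formed for the others. From day 1 to day 3 the Prl2c sum was 3.65-fold to 4.40-fold lower in the 3 Mtgr1-/- mice and 2.75-fold to 3.89-fold lower in the 3 WT mice.

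The single genes did not move in step over these 2 days. In Mtgr1-/- enteroids Prl2c2 was 4.70-fold to 5.38-fold lower at day 3 than at day 1, Prl2c3 2.85-fold to 3.88-fold, Prl2c5 2.38-fold to 5.20-fold and Prl2a1 7.61-fold to 68.1-fold. The largest of these ratios was that of Prl2a1 in mouse 2. The ratio of Prl2c3 to Prl2c2 counts was 0.741 to 1.15 at day 1 and 1.22 to 1.70 at day 3, without overlap. In WT it was 0.472 to 1.43 at day 1 and 0 to 0.569 at day 3, where counts were low. These ratios rest on the uncertain split between the pair. The share of Prl2c5 in the sum stayed between 1.36% and 2.08% over both days.

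**Figure D3:**
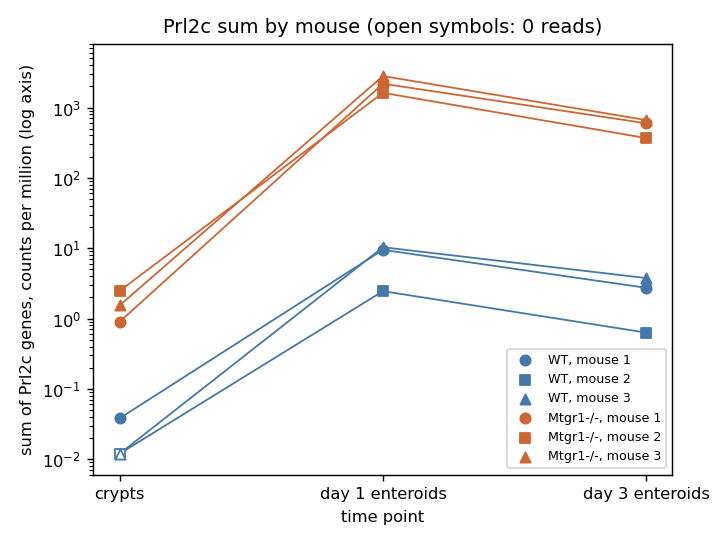
Prl2c sum in CPM (log axis) in crypts, day 1 and day 3 enteroids, with a line for each mouse and open symbols for libraries with 0 reads. All 6 lines are highest at day 1, at 1618 to 2801 in Mtgr1-/- and 2.45 to 10.3 in WT.

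Markers of other cell types that could express proliferins or carry them into the cultures were also read. Of 12 fibroblast markers, 7 had no row in the day 1 table, among them Col1a2, Col3a1, Dcn and Lum. The summed level of the fibroblast markers was nevertheless higher in Mtgr1-/- (3353 to 3605) than in WT (2259 to 2580) day 1 libraries. Nearly all of it came from Fbln1, an extracellular matrix gene (on average 3421 in Mtgr1-/- and 2368 in WT). At day 3 the ranges overlapped (2758 to 3766 in Mtgr1-/- and 2643 to 2881 in WT). Of the fibroblast markers, 2 were tested at day 1, and both passed as higher in Mtgr1-/-, with a median log2 difference of 1.03. Of all genes tested there, 58.9% passed (30.0% higher). At day 3 2 were tested, with 0 higher and 0 lower. Of 10 immune markers, all were listed at day 1, with a sum of 105 to 817 in Mtgr1-/- and 165 to 479 in WT. Mouse 3, with the highest Prl2c sum of its group at day 1 and day 3, also had the highest immune sum in Mtgr1-/- (817 at day 1 and 1081 at day 3). Endothelial markers summed to 39.6 to 60.7 in Mtgr1-/- and 71.3 to 91.4 in WT at day 1, and muscle and nerve markers to 16.1 to 35.3 and 40.6 to 52.1. Their part in the Prl2c difference was not tested. Without that mouse's library, the difference of the Prl2c sum was 8.52 at day 1 and 8.14 at day 3 on the log2 scale.

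The rest of the prolactin family was read for comparison. Besides the 5 genes, 6 further prolactin family genes had a row in at least 1 table, out of 23 that were looked for. Prl6a1, a placental and decidual prolactin, was at 4.57, 4.17 and 8.38 normalized counts in WT and at 71.1, 53.1 and 94.9 in Mtgr1-/- day 1 enteroids. The groups did not overlap, and the difference was 3.48 ± 0.38 (SE) on the log2 scale, and 1.70 ± 0.44 at day 3 (5.49 ± 2.32 against 19.9 ± 7.14). Prl7d1, which encodes proliferin-related protein, an inhibitor of vessel growth, was at 0, 0 and 1.68 in WT and at 33.8, 15.2 and 21.0 in Mtgr1-/- day 1 enteroids (log2 difference 4.06 ± 0.64). That is a read ratio of 29.7 with an exact 95% counting interval of 7.88 to 250, from 2 WT reads. At day 3 Prl7d1 had 1 read in WT and 3 in Mtgr1-/-. Both genes reached the mean of 10 through the Mtgr1-/- libraries, so that no p is given for them.

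Prl8a1 was low without a difference that the tables could show, with 5.28 ± 6.47 in WT and 6.94 ± 2.2 in Mtgr1-/- at day 1. Prl3d1, Prl5a1 and Prl7a1 rested on 3 or 4 reads over the Mtgr1-/- day 1 libraries. Per kb of transcript, the mean level in Mtgr1-/- day 1 enteroids was 37.7 CPM for Prl2c5, 23.4 for Prl2a1, 2.22 for Prl6a1 and 0.211 for Prl7d1, all far below Prl2c2 and Prl2c3.

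**Figure D4:**
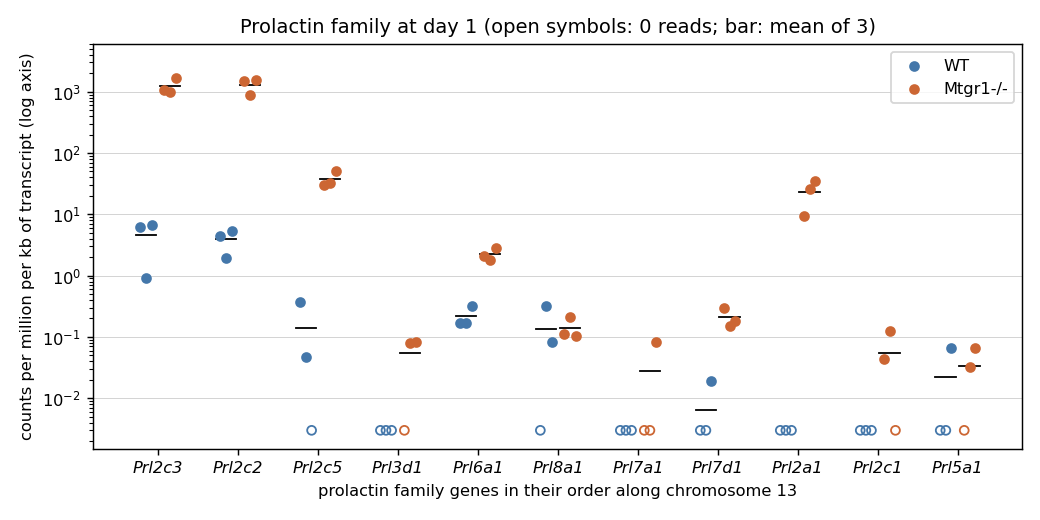
CPM per kb of transcript (log axis) of each listed prolactin family gene in day 1 enteroids, in their order along chromosome 13, with points for libraries, bars for means of 3 and open symbols for 0 reads. Prl2c3 and Prl2c2 stand at 1251 and 1295 in Mtgr1-/-, and Prl8a1 and Prl5a1 overlap between the genotypes.

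The promoters of some genes that were higher together in the enteroids were compared. The 250 bases before the transcription start are shown for 3 of the 5 genes and for Prl7d1, from RefSeq on GRCm38.p6, read in the direction of transcription, with capitals marking matches to GATAA, the core that GATA factors bind, searched on both strands. The windows are chr13:12800080-12800329 (minus strand) for Prl2c3, chr13:13182466-13182715 (plus strand) for Prl2c5, chr13:27801405-27801654 (plus strand) for Prl2a1 and chr13:27716738-27716987 (minus strand) for Prl7d1.
Prl2c3: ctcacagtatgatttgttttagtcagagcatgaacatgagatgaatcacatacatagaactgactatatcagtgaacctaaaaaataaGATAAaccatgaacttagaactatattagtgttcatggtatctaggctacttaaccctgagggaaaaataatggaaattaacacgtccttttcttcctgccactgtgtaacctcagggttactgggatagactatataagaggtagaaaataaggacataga
Prl2c5: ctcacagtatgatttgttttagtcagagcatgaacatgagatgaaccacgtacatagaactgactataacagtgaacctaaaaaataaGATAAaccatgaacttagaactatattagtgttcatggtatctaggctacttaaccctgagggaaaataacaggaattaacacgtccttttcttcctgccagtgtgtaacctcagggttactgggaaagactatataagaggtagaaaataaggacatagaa
Prl2a1: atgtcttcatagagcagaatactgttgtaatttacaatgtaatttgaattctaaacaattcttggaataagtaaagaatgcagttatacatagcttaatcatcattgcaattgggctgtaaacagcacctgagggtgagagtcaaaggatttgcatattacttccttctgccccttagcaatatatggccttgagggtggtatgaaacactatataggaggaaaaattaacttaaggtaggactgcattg
Prl7d1: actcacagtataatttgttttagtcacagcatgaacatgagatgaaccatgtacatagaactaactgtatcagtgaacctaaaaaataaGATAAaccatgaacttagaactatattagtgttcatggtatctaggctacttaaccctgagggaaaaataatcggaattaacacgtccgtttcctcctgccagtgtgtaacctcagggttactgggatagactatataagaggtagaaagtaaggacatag
Prl2c3 and Prl2c5 were identical at 241 of 251 aligned positions (96.0%), and Prl2c3 and Prl7d1 at 236 of 251 (94.0%). The promoter of Prl2a1 shared 144 of 271 aligned positions with that of Prl2c3 (53.1%). The coding sequence of Prl7d1, in contrast, shared 408 of 743 aligned bases with Prl2c2 (54.9%). Beside this likeness stand the levels per kb in Mtgr1-/- day 1 enteroids, with Prl2c3 at 1251, Prl2c5 at 37.7 and Prl7d1 at 0.211 CPM.

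GATAA occurred once in each of Prl2c3, Prl2c5 and Prl7d1, starting 161 or 162 bases before the end of the window, and not in Prl2a1. Of 32851 such windows of all genes, 22.6% held it. TGANTCA, the letters to which AP-1 binds, occurred in Prl2c3 only among these 4 windows and in 6.75% of all windows. CANNTG, the E-box, occurred 2 times in Prl2a1 and not in the others, and in 66.2% of all windows. TATATA occurred once in each of the 4 windows, 29 to 40 bases before its end, and in 5.25% of all windows. Each was searched on both strands and none overlapped another in these 4 windows. Prl6a1, also higher in Mtgr1-/- enteroids, held GATAA once, 179 bases before the end of its window, and TATATA 3 times. Its window shared 132 of 266 aligned positions with that of Prl2c3 (49.6%). Prl8a1, for which no difference was shown, held TATATA once and no GATAA. Such a match describes the letters of the window and no binding was measured.

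Receptors and signalling genes of the prolactins came next. Of 17 genes listed for this pathway, 17 were tested at each time point. None passed in crypts by limma, where 4.73% of all genes tested did (1.58% higher and 3.15% lower), 8 were higher and 0 lower at day 1, and 9 were higher and 0 lower at day 3 in Mtgr1-/-. The share of all genes that passed was 58.9% at day 1 (30.0% higher and 28.9% lower) and 59.0% at day 3 (29.9% higher and 29.1% lower). The median log2 difference of the list was 0.56 at day 1 and 0.47 at day 3, against -0.01 and 0.00 over all genes tested. Scaling each library to its total instead moved the median of all genes to -0.33 at day 1, -0.20 at day 3 and 0.04 in crypts. It moved the share of called genes that were higher from 50.9% down to 28.3% (day 1) and from 50.7% down to 35.2% (day 3). On that scaling the receptor and signalling list had 6 genes higher and 5 lower at day 1 and 9 higher and 4 lower at day 3. With mouse number as a block it had 10 higher and 1 lower at day 1.

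Prlr, the prolactin receptor, was expressed in every group. At day 1 it was at 1179, 1248 and 1146 in WT and at 1781, 1558 and 1635 in Mtgr1-/-, higher by 0.48 ± 0.087 (SE) on the log2 scale (limma, adjusted p = 0.0026). With each library scaled to its total the difference was 0.16 and no longer passed (adjusted p = 0.19). It did not pass in crypts (3443 ± 177 against 3397 ± 618) or at day 3 (1771 ± 156 against 1832 ± 348). Igf2r, the receptor named for proliferin, gave 2506 ± 131 in WT and 2532 ± 360 in Mtgr1-/- at day 1, 2757 ± 220 and 2874 ± 440 at day 3, and 2529 ± 466 and 2510 ± 362 in crypts, and passed at none of them. At day 1 its difference was 0.01 on the log2 scale, and it turned to -0.31 with libraries scaled to their totals (adjusted p = 0.046).

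Downstream of the receptor, Jak2, the kinase that prolactin receptors use, was higher by 1.21 ± 0.15 at day 1 and 0.96 ± 0.10 at day 3 (limma, adjusted p = 0.0005 and 0.00019). Stat3 was higher by 0.89 ± 0.10 and 1.06 ± 0.092 (adjusted p = 0.00043 and 6.9e-05). Map2k1, a kinase of the MAP kinase chain, was higher by 0.94 ± 0.11 at day 1 (adjusted p = 0.00044). Stat5a and Stat5b, the main STAT proteins of prolactin, did not pass at any time point. Their means at day 1 were 164 ± 60.7 and 499 ± 68.8 in WT and 93.9 ± 21.8 and 410 ± 9.56 in Mtgr1-/-, and with libraries scaled to their totals both were lower there (adjusted p = 0.026 and 0.013). The feedback inhibitor Socs1 rose at day 3 (10.1 ± 1.37 against 25.5 ± 1.5, limma adjusted p = 0.007).

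AP-1 proteins, the JUN and FOS families and their partners, are the factors through which growth signals are known to induce proliferin in fibroblasts. Of 10 to 11 genes tested in a list of 13, none passed in crypts, 6 were higher and 1 lower at day 1, and 9 were higher and 1 lower at day 3 in Mtgr1-/-, beside the 4.73%, 58.9% and 59.0% of all genes that passed. With libraries scaled to their totals, 4 were higher and 1 lower at day 1 and 8 were higher and 1 lower at day 3. The median log2 difference was 0.64 at day 1 and 1.05 at day 3. Junb rose by 0.83 ± 0.18 at day 1 and by 1.45 ± 0.13 at day 3 (limma, adjusted p = 0.0054 and 7.0e-05). Batf2 rose by 1.13 ± 0.15 at day 1 (adjusted p = 0.0008), and Mafk by 0.80 ± 0.14 (adjusted p = 0.0023).

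Fos was at 746 ± 178 in WT and 1103 ± 252 in Mtgr1-/- at day 1, which did not pass (adjusted p = 0.054, and 0.002 with mouse number as a block). At day 3 it was higher by 1.85 ± 0.14, with 324 ± 51.7 in WT and 1169 ± 154 in Mtgr1-/- (limma, adjusted p = 4.1e-05). Fosl1 was alike, with 191 ± 51.4 and 215 ± 21.3 at day 1 and no pass (adjusted p = 0.45, and a difference of -0.11 with libraries scaled to their totals), and with 25.1 ± 3.12 and 141 ± 36 at day 3, a difference of 2.42 ± 0.24 (limma, adjusted p = 0.00011). Jun moved the other way. In Mtgr1-/- it fell by 0.54 ± 0.17 at day 1 (1060 ± 129 against 733 ± 143, adjusted p = 0.023, and up to 0.081 without single WT libraries) and fell by 0.95 ± 0.11 at day 3 (1457 ± 129 against 758 ± 96.7, adjusted p = 0.00032).

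Transcription factors of the trophoblast, with the placental surface protein Plet1 in the same list, were read because trophoblast giant cells are the known source of proliferins. Of 19 listed, 9 or 10 were tested. In crypts 1 was higher and 0 lower, at day 1 4 were higher and 1 lower, and at day 3 5 were higher and 2 lower, beside the 4.73%, 58.9% and 59.0% of all genes that passed. At day 1 the count was 6 higher and 1 lower with mouse number as a block and 3 higher and 2 lower with libraries scaled to their totals. In crypts it was 2 higher with the block, and at day 3 4 higher and 3 lower with scaling to totals. The median log2 difference was 0.40 at day 1 and 0.34 at day 3. Tfap2a, an AP-2 factor, was at 2.06 ± 0.97 in WT and 473 ± 87.2 in Mtgr1-/- crypts, at 4.64 ± 1.58 and 470 ± 103 at day 1, and at 2.73 ± 0.83 and 479 ± 167 at day 3. Its log2 differences were 7.31 ± 0.36, 6.39 ± 0.29 and 6.96 ± 0.33. It reached the mean of 10 through the Mtgr1-/- libraries, so that no p is given for it. The counts of higher genes above include Tfap2a at each time point, and in crypts it is the 1 gene counted. Unlike the Prl2c sum, its level in the Mtgr1-/- libraries was of the same size in crypts and enteroids.

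Plet1 was higher by 2.30 ± 0.46 at day 1 and 3.09 ± 0.34 at day 3 (limma, adjusted p = 0.0037 and 0.00021). In crypts it was at 79.0 ± 47.9 in WT and 966 ± 873 in Mtgr1-/- and did not pass (adjusted p = 0.06). Cdx2, which acts in both trophoblast and intestine, was higher by 0.39 ± 0.13 at day 1 (adjusted p = 0.03), but by 0.066 and without passing with libraries scaled to their totals (adjusted p = 0.73). Id2 was higher by 1.35 ± 0.21 at day 1 (adjusted p = 0.0013), and Tead4, required for trophoblast formation, by 3.01 ± 0.22 at day 3 (37.4 ± 4.88 against 313 ± 85.5). Ascl2, which is needed in trophoblast progenitors and also marks intestinal stem cells, fell by 1.62 ± 0.20 at day 1 and fell by 1.97 ± 0.29 at day 3 (adjusted p = 0.00051 and 0.00076), and Ets2 fell by 0.27 ± 0.071 at day 3 (adjusted p = 0.013). Gata3, a GATA factor of giant cells, was at 2.95 ± 2.59 in WT and 18.3 ± 19.6 in Mtgr1-/- at day 1. Gata3 reached the mean that the fit required through the Mtgr1-/- libraries, so that no p is given for it. Gata2 averaged under 4 normalized counts at each time point and Hand1 had no row, so neither was tested.

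**Figure D5:**
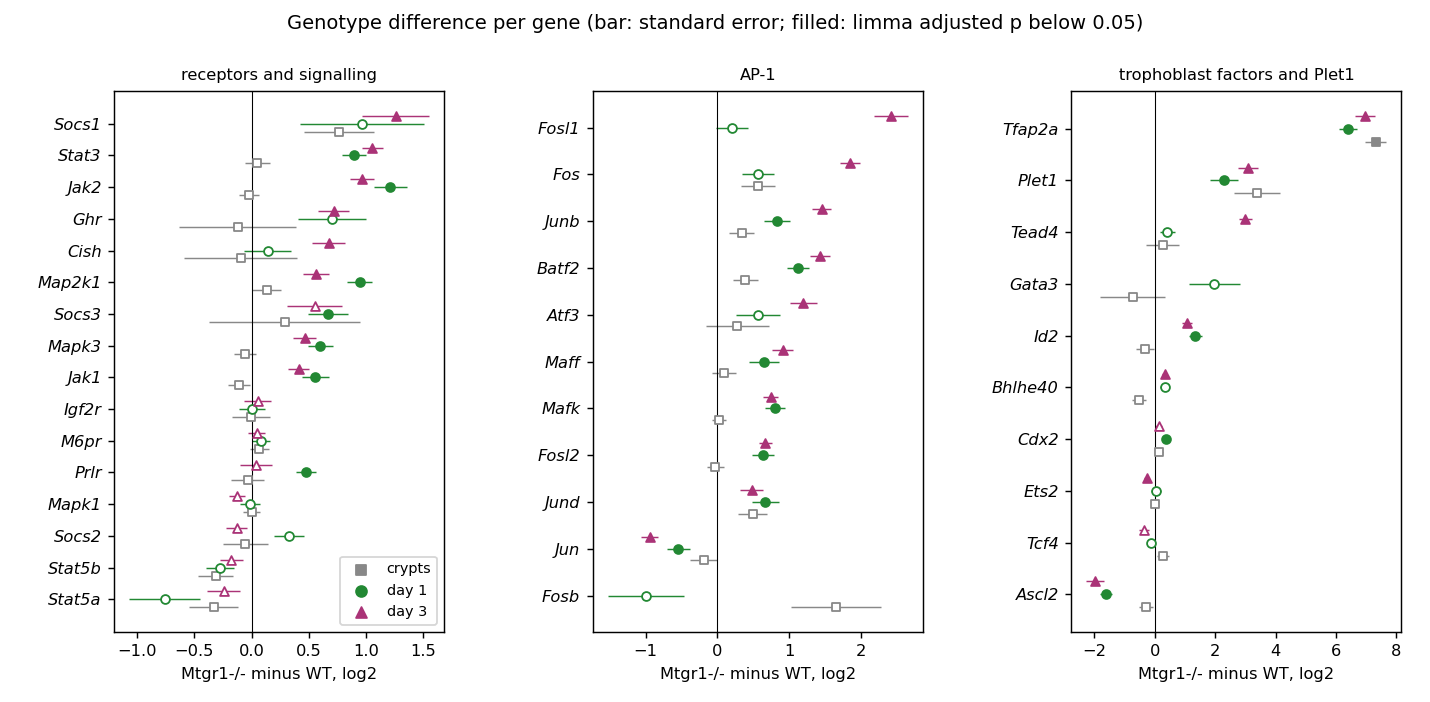
Difference between Mtgr1-/- and WT on the log2 scale (x axis) for the tested genes of the receptor and signalling (1 gene left out), AP-1 and trophoblast lists, by time point, with standard errors as bars and filled symbols for a limma adjusted p below 0.05. Fosl1 and Fos lie furthest right among AP-1 genes at day 3 (2.42 and 1.85), Jun lies on the left at day 1 and day 3, and Tfap2a lies above 6 at all time points.

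Other placental genes did not share a direction. Of 37 listed, 8 to 11 were tested. In crypts 0 were higher and 3 lower, at day 1 2 were higher and 2 lower, and at day 3 4 were higher and 2 lower in Mtgr1-/-, beside the 4.73%, 58.9% and 59.0% of all genes that passed. The median log2 differences were -0.26, 0.07 and -0.01. Genes of the spongiotrophoblast and of the placental cathepsin group, among them Tpbpa, Tpbpb, Ctsq, Ctsj and Ctsm, had no row in any table. Plac8, a gene also expressed in intestine, was higher by 1.04 ± 0.21 at day 1 and 1.58 ± 0.15 at day 3 (limma, adjusted p = 0.0042 and 0.00012). Psg16 was higher by 0.80 ± 0.17 at day 1 (adjusted p = 0.0044), which did not pass with libraries scaled to their totals (adjusted p = 0.052). Plac9a, Peg3 and Phlda2 were higher at day 3 by 3.10 ± 0.97, 1.18 ± 0.35 and 1.03 ± 0.17 (adjusted p = 0.024, 0.019 and 0.0016). Of 16 other settings, Peg3 did not pass in 3 (adjusted p up to 0.068) and Plac9a in 4 (up to 0.078), each without the WT library of mouse 2 among others.

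Pappa2, a protease that cleaves IGF-binding proteins, was lower at every time point. It was at 24.4 ± 7.15 in WT and 0.32 ± 0.55 in Mtgr1-/- crypts, at 22.6 ± 7.45 and 0.37 ± 0.64 at day 1, and at 42.1 ± 2.97 in WT and 0 in each Mtgr1-/- library at day 3. It reached the mean of 10 through the WT libraries, so that no p is given for it. The counts of lower placental genes above include Pappa2 at each time point. Syna, a syncytin, was lower at each time point, with log2 differences of -1.16 ± 0.17, -1.62 ± 0.31 and -0.79 ± 0.18 (adjusted p = 0.013, 0.0032 and 0.0069). Psg25 fell by 1.56 ± 0.33 in crypts (adjusted p = 0.049). Of 16 other settings, Psg25 did not pass in 10, among them all 6 that leave out a library, with adjusted p of up to 0.16. Syna in crypts did not pass in 2 settings that leave out a WT library (up to 0.083).

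Proliferation genes were listed because the name proliferin comes from proliferating cells. Of 20 genes, 20 were tested and none passed in crypts, where 4.73% of all genes tested did. In Mtgr1-/-, 19 were lower and 0 higher at day 1 and 20 were lower and 0 higher at day 3. Of all genes tested, 58.9% passed at day 1 (28.9% lower) and 59.0% at day 3 (29.1% lower). The median log2 difference of the list was -1.15 at day 1 and -1.0 at day 3. Mcm2, Mcm3 and Mcm6, subunits of the replicative helicase, were among those that fell. Mcm2 went from 3387 ± 168 in WT to 1212 ± 281 in Mtgr1-/- at day 1 and from 3872 ± 145 to 1698 ± 461 at day 3. Mcm6 was at 5564 ± 197 and 2101 ± 571 at day 1.

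Genes around the 2 proliferin places on chromosome 13 were read next. Of the genes that are not prolactins and start within 1 Mb of a member, 13 or 14 were tested at each time point. In crypts 0 were higher and 1 was lower, at day 1 4 were higher and 4 lower, and at day 3 3 were higher and 4 lower. These counts stand beside the 4.73%, 58.9% and 59.0% of all genes that passed. The median log2 differences of the tested neighbours were -0.01, -0.04 and -0.14. All of them lie beside the Prl2c2, Prl2c3 and Prl2c5 genes. Nid1 encodes a basement membrane protein, and its gene starts 255 kb from the nearest member. At day 1 it was at 21.4 ± 14.9 in WT and 897 ± 304 in Mtgr1-/- (log2 difference 5.56, limma adjusted p = 0.00026). At day 3 it was at 9.79 ± 10.8 and 618 ± 173 (6.68). There it reached the mean of 10 through the Mtgr1-/- libraries, so that no p is given, though the count above includes it. Gpr137b, a lysosomal membrane protein 175 kb away, was at 45.7 ± 17.9 and 433 ± 64.8 at day 1 (3.27) and at 11.9 ± 1.1 and 229 ± 20.3 at day 3 (4.15). In enteroids both were higher in Mtgr1-/-, as the proliferin genes were. In crypts Gpr137b did not pass. There Gpr137b overlapped, at 0.96, 1.98 and 66.8 in WT and 23.5, 16.2 and 25.4 in Mtgr1-/-. Nid1 was at 0.96, 0.99 and 12.7 in WT and 22.6, 33.3 and 39.6 in Mtgr1-/- crypts. In crypts, too, Nid1 reached the mean of 10 through the Mtgr1-/- libraries, so that no test result is given.

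Gng4, a G protein subunit 601 kb away, went the other way, with 49.6 ± 16.1 in WT and 0 in every Mtgr1-/- crypt library, 35.8 ± 5.8 and 0.37 ± 0.64 at day 1, and 40.9 ± 9.59 in WT and 0 in every Mtgr1-/- library at day 3. It reached the mean of 10 through the WT libraries. The counts of lower neighbours include Gng4 at each time point, and in crypts it is the 1 gene counted. Lgals8 was higher by 0.96 at day 1 and 0.81 at day 3 and Ero1lb by 0.66 at day 1. In the other direction, the log2 difference of Heatr1 was -1.0 and -0.62 and that of Mtr -0.75 and -0.61 at these time points, that of Edaradd -1.06 at day 1 and that of B3galnt2 -0.52 at day 3. Of all genes tested, 58.9% passed at day 1 and 59.0% at day 3. With libraries scaled to their totals, 4 neighbours were higher and 7 lower at day 1 and 3 were higher and 6 lower at day 3. The others, Tbce, Ggps1, Arid4b and Lyst among them, passed at no time point.

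The genes whose pattern over the 18 libraries was most like the Prl2c sum were found by Pearson's r of log2(CPM + 0.1) among 11843 genes, which is a description over libraries that share genotype, time point and mouse. The 10 with the highest r were Wbp1l (0.979), Ctsd (0.975), Sh3tc1 (0.973), Idh1 (0.968), Cavin3 (0.966), Twf1 (0.965), Ccdc134 (0.963), Ptgr1 (0.961), Serpinb9b (0.960) and Por (0.959). In all, 98 genes had an r above 0.9, and the median r of all genes was -0.14. The size of the changes differed widely within this group. Serpinb9b, a serine protease inhibitor, went from 0.013 CPM in WT crypts to 4.13 ± 1.61 in WT and 116 ± 58.7 in Mtgr1-/- day 1 enteroids and was at 49.0 ± 3.25 in Mtgr1-/- at day 3. Ctsd, the lysosomal protease cathepsin D, was at 263 ± 22.0 in WT and 602 ± 51.2 in Mtgr1-/- at day 1. Idh1, a cytosolic NADP-dependent dehydrogenase, was at 433 ± 32.4 and 1158 ± 188, and Wbp1l went only from 76.2 ± 5.10 to 94.8 ± 3.54. Of the gene lists, Maff was the AP-1 gene most like the sum (r = 0.895, rank 112) and Tead4 the trophoblast factor most like it (r = 0.831, rank 331).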

How the data were processed

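RNA from 18 libraries, 3 mice per genotype and time point, was sequenced by the authors as single 50-base reads from stranded mRNA libraries. Per the study's methods, reads were trimmed with fastp 0.20.0, quantified with Salmon 1.3.0 against GENCODE M21 and compared with DESeq2 1.26.0. The deposited signal values, in a table for each time point, are named normalized counts and behave as the authors' gene counts divided by a factor for each library; whether the tables were scaled together is not given in the sources used here. The deposited tables also hold the authors' own comparison, as log2 fold changes with errors, a test score and p-values, none of which was used.

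The steps of low values gave back whole reads (tolerance 0.001; 100% of values whole), giving 22035316 to 29661084 reads per library. In the WT crypts and the Mtgr1-/- day 3 enteroids of mouse 2 the step was within 0.02 of 1, so that the steps do not show the recovery there. Salmon divides reads that fit several genes, and counting intervals cover counting error only.

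Genotypes were compared within each time point on log2(normalized count + 1), among genes with a mean of at least 10, with limma 3.58.1 (R 4.3.3) and Benjamini-Hochberg adjustment, a call being an adjusted p below 0.05. A fold change on this scale understates that of low genes. The test recovered known changes in simulated data in which few genes changed and the spread was fixed. That simulation does not show how the test performs in the enteroid libraries, where 58.9% (day 1) and 59.0% (day 3) of genes passed. Because the normalized values are not counts, edgeR 4.0.16 and DESeq2 1.42.0 were run on the recovered reads as alternatives, beside other pseudocounts, filters and scalings, the mouse number as a block and each library left out. Mice are named by the number in the labels. Deviations from the group means of same-numbered WT and Mtgr1-/- libraries correlated at 0.116, 0.231 and 0.216 at day 1. Differently numbered libraries reached at most -0.015 there. In crypts the same-numbered values were 0.076, 0.274 and 0.346, and the others reached up to 0.201. At day 3 the same-numbered values were -0.016 to -0.0023, and the others reached up to 0.105. All of these are weak and do not settle whether the numbers pair the mice. Nothing in the labels says that same-numbered mice of the 2 genotypes were litter mates.

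The 5 genes and all lists were chosen with earlier results of these data known. Named were the 5 genes, all other prolactin genes, up to 3 rises and 3 falls of each list and time point among genes that passed, a fixed set (Prlr, Igf2r, Jun, Fos, Fosl1, Gata2, Gata3 and Hand1), the neighbours within 1 Mb, the 10 genes most like the Prl2c sum (mean of at least 1 CPM) and Cbfa2t2; Stat5a, Stat5b and the marker genes were named after their values were seen. Sequences came from the GRCm38 genome with GENCODE M21 models and from RefSeq. Values of 1 gene of the receptor and signalling list, which is counted in that list, are not reported here.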

Additional observations from a re-analysis of the deposited data

Results flagged for a closer look

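In 3 genes all Mtgr1-/- libraries lay on one side of WT in crypts and on the other side in enteroids, and the difference between time points was not tested. Plac8 differed by -0.26 in crypts, 1.04 at day 1 and 1.58 at day 3 (Mtgr1-/- minus WT, log2 scale). Ero1lb, an endoplasmic reticulum oxidase beside the Prl2c genes, differed by -0.52 in crypts and 0.66 at day 1, and Bhlhe40, a transcription factor of the trophoblast list, by -0.52 in crypts and 0.34 at day 3. The crypt differences of these 3 genes did not pass in the fit over all genes. A one-sided position of this kind was common. For 13.5% of all genes in the crypt fit, every Mtgr1-/- library lay below every WT library. The share lying entirely above WT was 34.2% in day 1 enteroids and 34.6% in day 3 enteroids. How many genes of the whole series changed side is not given, so these 3 are not shown to be unusual.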

How the results depend on the processing

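The Prl2c sum was higher in Mtgr1-/- in every setting. In crypts its log2 difference of 4.95 was 7.42 with a pseudocount of 0.1, 2.48 with a pseudocount of 8, 4.09 from Prl2c2 alone and 4.64 to 5.34 without single libraries. At day 1 it was 8.05 to 9.10 without single libraries, and at day 3 7.54 to 8.80, and 9.97 from Prl2c3 alone. The change from day 1 to day 3 was -2.11 to -1.97 on the log2 scale without single libraries. A replicate block for the mouse number cannot change the difference of the sum in this balanced layout, so that setting says nothing about it. With the block the calls over all genes were 562 in crypts, 8027 at day 1 and 7289 at day 3. Without the block they were 614, 7413 and 7545.

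Calls over all genes were 1379 in crypts with DESeq2 and 176 to 608 without single libraries, lowest without the WT crypts of mouse 1 (176) and mouse 2 (211) and also low without the Mtgr1-/- crypts of mouse 1 (310) and mouse 3 (379). They were 6136 to 7874 at day 1 and 6096 to 7695 at day 3. Calls over the gene lists were 1 to 3 in crypts (4 in all libraries), 42 to 49 at day 1 and 49 to 53 at day 3 without single libraries. Among the neighbours they were 1 to 4 in crypts (4 without the WT crypts of mouse 3, and 2 with DESeq2), 8 to 9 at day 1 and 7 to 8 at day 3. The list calls include Prl6a1, Prl7d1, Tfap2a and Pappa2 where they passed, and the neighbour calls include Gng4 and, at day 3, Nid1. All of these reached the mean of 10 through 1 genotype. Of the 10 genes most like the sum, 3 were also among the first 10 by Spearman's rho, and 0 over the 12 enteroid libraries or within groups.

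Differences that did not pass changed sign in some settings. Scaled to the total, Igf2r was at 0.024 in crypts, -0.314 at day 1 and -0.148 at day 3, Fosl1 at -0.114 at day 1, Prlr at -0.166 at day 3 and Cbfa2t2 at -0.145 at day 3. Igf2r at day 1 was -0.024 with median-ratio scaling and -0.015 with edgeR. Without single libraries the difference ranged from -0.114 to 0.137 in crypts, -0.099 to 0.104 at day 1 and -0.068 to 0.137 at day 3 for Igf2r. It ranged from -0.155 to 0.111 in crypts and -0.104 to 0.169 at day 3 for Prlr, from -0.207 to 0.082 in crypts and -0.024 to 0.151 at day 3 for Cbfa2t2, and from -0.028 to 0.373 at day 1 for Fosl1. Of the settings for 76 named gene and time point pairs, 1147 kept direction and call, 23 changed sign, 27 lost the call and 10 gained it. These pairs include genes that reached the mean of 10 through 1 genotype, among them Prl6a1, Prl7d1, Tfap2a, Pappa2, Gng4 and, at day 3, Nid1. For such genes a kept call adds no support. Depth limits Prl2c5 in crypts and Prl2c1, which are at or near the floor of 3 reads.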
